A study of Mus musculus with 18 samples.

Results

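Expression of 8 genes that carry or block the killing signals of NK cells inside a tumour cell was followed across 18 lung metastases of a mouse mammary carcinoma. The genes are the death receptors Fas and Tnfrsf10b, the protease gene Casp8 and its blocker Cflar, the shared protease substrate Bid, the granzyme B inhibitor Serpinb9 and the survival genes Bcl2l1 and Mcl1. They were chosen by their known roles, with earlier results of these data known, and are 8 of 49585 gene identifiers in the deposited count table. All 8 had counts in both groups and were among the 16917 genes that passed the filter on low counts.

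The tumour cells were AT3 cells, a line derived from a mammary tumour of a mouse with a mammary-driven PyMT oncogene, carrying GFP and mCherry. They were placed in the mammary fat pad and reached the lungs on their own. The NK group holds 7 lesions of 2 mice, 3 from mouse NK1 and 4 from mouse NK2, which received 60000 mouse NK cells, activated in culture, by vein on day 11. The Ctrl group holds 11 lesions of 3 mice given PBS, 5 from mouse KO1, 4 from KO2 and 2 from KO3. All 5 hosts are labelled Rag2-/-IL2rg-/-, a genotype without T, B and NK cells of its own, while the growth protocol names Rag1-/-; host myeloid, vessel and lung cells remain. A lesion is written as mouse and lesion number, so that NK1-3 is lesion 3 of mouse NK1. Lesions were picked by their fluorescence and cut out by laser, so a library can hold host cells next to tumour cells.

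NK cells kill along routes that meet inside the target cell. Ligands of the TNF family bind the death receptors Fas and TRAIL receptor (encoded by Tnfrsf10b), which recruit and activate caspase-8. The protein c-FLIP (Cflar) occupies the same complex and holds caspase-8 in check. The granule route delivers granzyme B through perforin, and the serpin encoded by Serpinb9 binds and inactivates granzyme B. Caspase-8 and granzyme B both cut BID, whose fragment opens mitochondria with the help of BAX and BAK. BCL-XL (Bcl2l1) and MCL1 oppose that step.

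The promoters of Fas and Casp8 are shown because these genes had opposite patterns across lesions, and that of Serpinb9 because it encodes the blocker of granzyme B. The windows are RefSeq sequences on GRCm38.p6, from 250 bases before to 50 after an annotated start on the plus strand, at chr19:34290409-34290708 (Fas), chr1:58802252-58802551 (Casp8) and chr13:33004291-33004590 (Serpinb9). Capitals mark matches, on either strand, to TTCNNNGAA (the GAS element of STAT factors), the core of interferon response elements (the tetranucleotide GAAA repeated after a gap of 2 bases), GGGCGG (the GC box), TATAAA, the p53 half-site and the kB site.
Fas: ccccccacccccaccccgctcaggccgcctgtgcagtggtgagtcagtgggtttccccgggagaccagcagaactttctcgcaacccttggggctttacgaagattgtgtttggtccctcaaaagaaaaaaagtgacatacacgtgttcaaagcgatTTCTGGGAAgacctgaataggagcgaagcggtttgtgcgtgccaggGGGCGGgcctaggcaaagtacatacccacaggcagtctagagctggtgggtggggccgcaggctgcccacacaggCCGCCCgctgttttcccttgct
Casp8: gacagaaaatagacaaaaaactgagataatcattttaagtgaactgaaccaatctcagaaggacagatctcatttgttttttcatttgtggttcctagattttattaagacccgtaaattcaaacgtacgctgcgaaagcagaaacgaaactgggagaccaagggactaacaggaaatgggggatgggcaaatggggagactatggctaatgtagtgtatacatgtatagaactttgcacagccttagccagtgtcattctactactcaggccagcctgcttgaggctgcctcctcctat
Serpinb9: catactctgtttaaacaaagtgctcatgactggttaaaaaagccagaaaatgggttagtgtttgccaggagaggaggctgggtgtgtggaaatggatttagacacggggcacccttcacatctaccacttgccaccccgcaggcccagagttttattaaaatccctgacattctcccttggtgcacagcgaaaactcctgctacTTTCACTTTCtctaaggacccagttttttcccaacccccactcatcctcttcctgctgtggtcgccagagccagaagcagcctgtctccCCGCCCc

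Fas held TTCTGGGAA from base -93, counted from the start site, and 2 GC boxes. Serpinb9 held TTTCACTTTC, the reverse complement of an interferon core, from base -46, and 1 GC box. The Casp8 window held none of the 6 motifs. The matches shown do not overlap each other. Of 7 members with a window, Cflar also held an interferon core. The Casp8 and Serpinb9 windows start inside the gene as annotated by GENCODE, at a start that RefSeq lists. Among 32851 windows of all genes, 8.3% held TTCNNNGAA, 3.44% the interferon core, 35.7% the GC box, 13.6% TATAAA, 8.36% the p53 half-site and 8.46% the kB site, so these matches are a description of letters.

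Total counts were 2964242 to 11798897 in the NK lesions and 5690467 to 9816244 in the Ctrl lesions. Between 13.7% and 65.3% of the counts of NK lesions fell on mt-Rnr2, a ribosomal RNA of mitochondria, against 12.1% to 68.7% in Ctrl lesions. Of 10 markers of mammary carcinoma cells, 10 had counts in each group, with a summed level of 125 to 1070 CPM (counts scaled to a common library size) in NK lesions and 129 to 535 CPM in Ctrl lesions; lung epithelium shares several of them. NK cell markers summed to 5.76 to 83.5 CPM in NK lesions and 0.805 to 10.4 CPM in Ctrl lesions, with counts for 14 of 14 markers in each group. Of 6 T cell markers, 4 had counts in NK lesions and 2 in Ctrl lesions, with Cd3e and Cd3g at 0 in both groups. T cell markers summed to 0 to 0.582 CPM in NK lesions and 0 to 8.06 CPM in Ctrl lesions, with the highest sum in KO2-4. Airway markers reached 24987 CPM in lesion NK1-3 and 15937 CPM in KO3-1, and lay between 0.460 and 4361 CPM in the other 16. Fat cell markers summed to 1434 CPM in NK1-1 and to at most 6.63 CPM elsewhere. Fibroblast markers summed to 513 to 8652 CPM in NK lesions and 147 to 881 CPM in Ctrl lesions, with 8 of 8 markers counted in each group, and both NK mice lay above every Ctrl mouse (NK1 6014 and NK2 1180 CPM, against KO1 766, KO2 650 and KO3 300.1 CPM). The highest lesion was NK1-1, and NK1-3 lay within the Ctrl range; the part of these cells in the levels of the 8 genes was not tested. In such bulk samples, fewer cells of a type and less RNA per cell cannot be told apart.

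Levels between genes were compared as CPM per kilobase of merged exons. Mcl1 stood highest at 53.7 ± 8.79 CPM per kb (SD, n = 5 mice), above the next gene in 17 of 18 lesions. Fas followed with 10.8 ± 4.68 and Casp8 with 10.6 ± 5.87, and this pair did not differ beyond its spread, with Fas higher in 10 of 18 lesions. Bid had 8.42 ± 2.80, Bcl2l1 4.86 ± 1.197 and Cflar 4.21 ± 1.88 CPM per kb. Casp8 exceeded Bid in 3 of 5 mice and Bcl2l1 exceeded Cflar in 3 of 5 mice, so these neighbours in the order overlapped as well. Tnfrsf10b had 2.60 ± 0.759 and stood above Serpinb9, the lowest with 1.15 ± 0.615, in 18 of 18 lesions. The merged exons of Cflar span 12.67 kb over many isoforms, against 2.06 kb for Fas, which lowers the value of Cflar per kb relative to its counts.

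**Figure D1:**
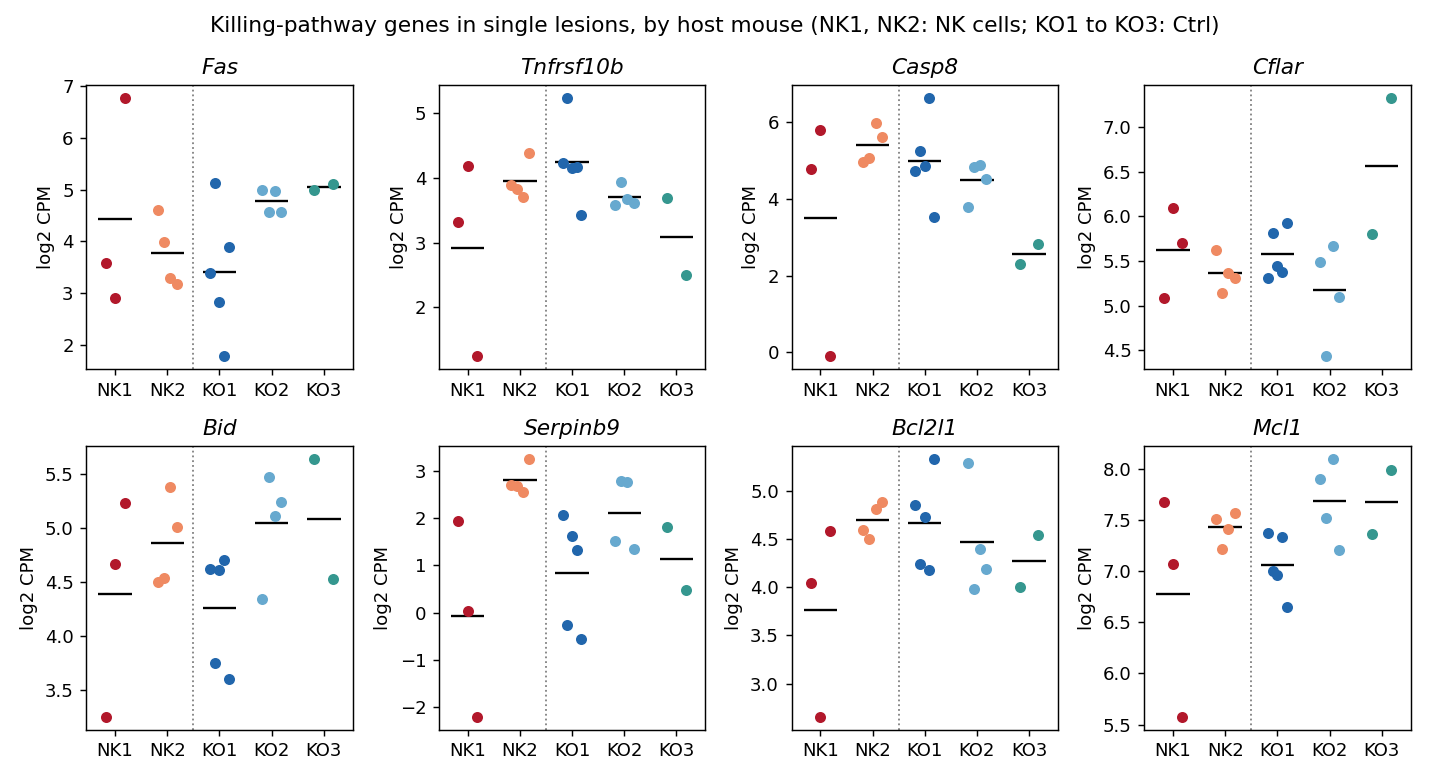
Log2 CPM (prior count 2) of each gene in single lesions (points), grouped by host mouse, with NK mice left of the dotted line and Ctrl mice right of it and the mean of each mouse as a bar. Casp8 reached its lowest level in NK1-3 at -0.097 and Fas its highest in the same lesion, and the NK and Ctrl lesions overlapped for all 8 genes.

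The death receptor Fas (chromosome 19, 34290666 to 34327772, plus strand, GRCm38) ranged over 7.30, 11.8 and 109 CPM (lowest, median and highest) in the 7 NK lesions, against 3.22, 23.5 and 34.7 CPM in the 11 Ctrl lesions. The ranges overlapped, and the 109 CPM came from NK1-3 alone, the next NK value being 24.2 CPM in NK2-1. Summed per mouse, Fas reached 23.3 CPM (NK1) and 15.03 CPM (NK2), against 10.2 (KO1), 29.0 (KO2) and 33.6 CPM (KO3). Its log2 fold change was -0.34 ± 0.57 (SE; 95% interval -1.66 to 0.98). It was -0.90 without lesion NK1-3 and 0.32 without NK1-1, so that its direction depended on which lesion of mouse NK1 was kept.

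Tnfrsf10b (chromosome 14, 69767472 to 69784411, plus strand), which encodes the TRAIL receptor of the mouse, had 2.16, 13.9 and 20.6 CPM in NK lesions, against 5.42, 12.6 and 37.4 CPM in Ctrl lesions. Both extremes lay in single lesions, NK1-3 at the bottom and KO1-2 at the top, and the groups overlapped. The mice had 10.4 CPM (NK1) and 16.6 CPM (NK2), against 19.9 (KO1), 13.7 (KO2) and 10.3 CPM (KO3). The log2 fold change was -0.12 ± 0.49 (95% interval -1.24 to 1.01), and it was 0.18 without mouse NK1 and 0.18 without KO1.

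Casp8 (chromosome 1, 58795374 to 58847503, plus strand), the initiator protease of the receptor route, had the largest SD of log2 CPM over the 18 lesions of the 8 members, 1.56, next to 1.44 for Serpinb9. It had 0.720, 33.2 and 63.6 CPM in NK lesions, against 4.74, 26.2 and 99.6 CPM in Ctrl lesions, which overlapped. NK1-3 held a single count, while NK1-1 had 27.3 CPM and NK1-2 56.0 CPM in the same mouse. Both lesions of KO3 were low as well, at 4.74 CPM in KO3-1 and 6.84 CPM in KO3-2, as was KO1-5 at 11.4 CPM. The remaining 14 lesions had 13.6 CPM or more. Per mouse, Casp8 stood at 29.7 CPM (NK1) and 46.6 CPM (NK2), against 46.1 (KO1), 25.0 (KO2) and 5.65 CPM (KO3). The log2 fold change was 0.57 ± 0.74 (95% interval -1.13 to 2.28), and it was 0.10 without mouse KO3 and 1.33 without KO1.

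The low-Casp8 lesions had mt-Rnr2 shares of 52.0% (NK1-3), 35.8% (KO3-1), 44.1% (KO3-2) and 68.7% (KO1-5). Lesions with shares of 47.6% (NK1-1), 65.3% (NK1-2) and 58.3% (KO1-2) had 27.3, 56.0 and 37.7 CPM of Casp8. Airway markers were high in NK1-3 and KO3-1, as given above, but summed to 65.8 CPM in KO3-2 and 65.4 CPM in KO1-5. Alveolar markers summed to 3055 CPM (NK1-3), 2337 CPM (KO3-1), 2077 CPM (KO3-2) and 2486 CPM (KO1-5). They summed to 664 CPM in KO1-4, 359 CPM in NK1-2 and 221 CPM in NK1-1. In KO1-2 and NK2-2, with 37.7 and 33.2 CPM of Casp8, they summed to 3472 and 2101 CPM. The part of these measures in the Casp8 level was not tested.

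Cflar (chromosome 1, 58711508 to 58758884, plus strand), the neighbour of Casp8 and the source of its blocker c-FLIP, was steadier. It had 33.7, 41.0 and 68.1 CPM in NK lesions, against 21.4, 44.7 and 160 CPM in Ctrl lesions. The 160 CPM lay in KO3-2, the next value being 68.1 CPM in NK1-2. Both NK mice had 43.2 CPM, against 45.5 (KO1), 39.2 (KO2) and 95.9 CPM (KO3), so the NK mice lay inside the Ctrl range. The log2 fold change was -0.48 ± 0.48 (95% interval -1.58 to 0.62), and it was 0.03 without mouse KO3.

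The ratio of Cflar to Casp8 counts within a library does not depend on how libraries are scaled. It is not corrected for length, and merged exons span 12.67 kb for Cflar against 2.89 kb for Casp8. Per kb, Casp8 stood above Cflar in every mouse but KO3 (means of 10.6 against 4.21 CPM per kb). Counts alone therefore do not rank these genes. On the log2 scale the count ratio was 0.54 in NK1 and -0.11 in NK2, against -0.02 in KO1, 0.65 in KO2 and 4.07 in KO3. The mean was 0.22 ± 0.46 (SD, n = 2) in NK mice and 1.57 ± 2.20 (SD, n = 3) in Ctrl mice. The difference was -1.35 (exact permutation test over mice, two-sided p = 0.6, where 2 against 3 mice allow no p under 0.1). It shrank to -0.10 without mouse KO3. Among lesions, Cflar counts exceeded Casp8 counts in 14 of 18, by 72 counts to 1 in NK1-3, 680 to 29 in KO3-2 and 423 to 36 in KO3-1. Casp8 counts were the larger in NK2-3, NK2-4, KO1-4 and KO2-2, with 866 Casp8 counts to 358 Cflar counts in KO1-4. The order of these lesions therefore crossed the treatment groups.

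**Figure D2:**
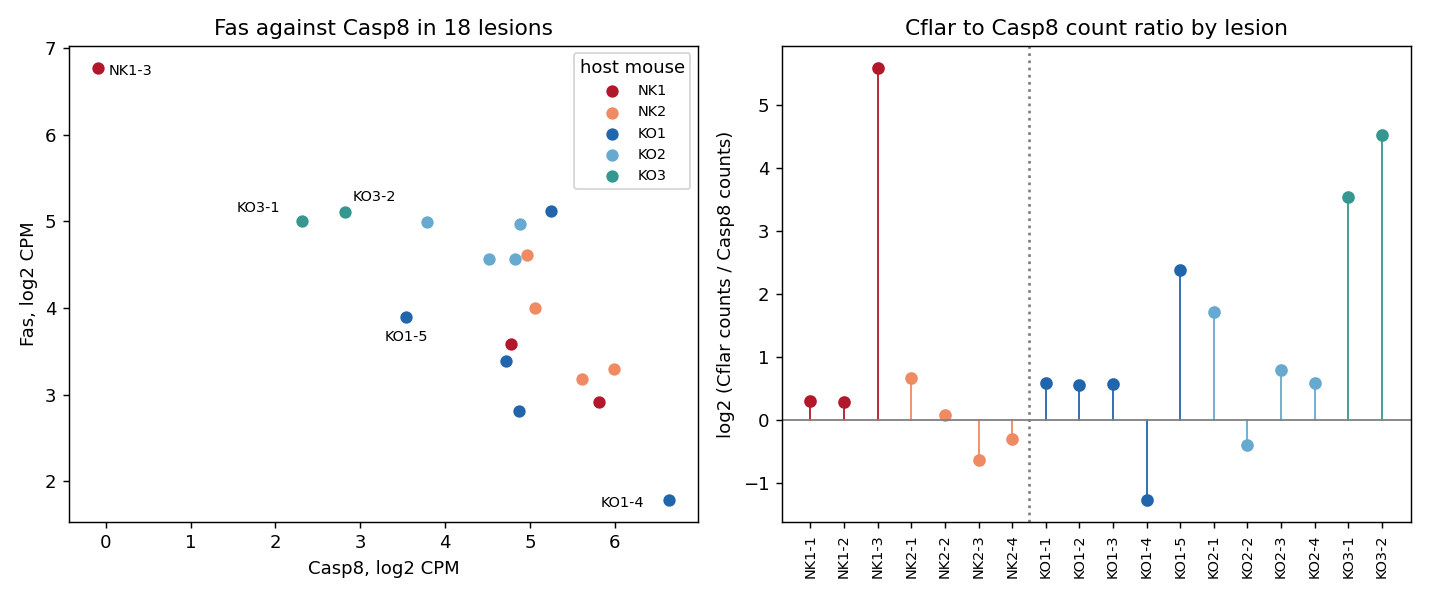
Left: log2 CPM of Fas (vertical) against Casp8 (horizontal) in the 18 lesions, coloured by host mouse. Right: log2 ratio of Cflar counts to Casp8 counts (0.5 added to each, not corrected for exon length) by lesion, NK lesions left of the dotted line. Of 18 lesions, 14 lay above 0, with the highest values in NK1-3 (5.59), KO3-2 (4.53) and KO3-1 (3.54).

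Fas and Casp8 ran in opposite directions across lesions. NK1-3, with the least Casp8, had the most Fas, and KO1-4, with the most Casp8 at 99.6 CPM, had the least Fas at 3.22 CPM. Over the 18 lesions, which share hosts and differ in depth, Pearson's r of log2 CPM was -0.79. It was -0.81 after each lesion was set against the mean of its mouse. Tnfrsf10b followed Casp8 with r = 0.80, and with 0.77 after the same centring. Without NK1-3, the r of Fas with Casp8 was -0.67 and that of Tnfrsf10b with Casp8 was 0.57 over 17 lesions. Among all pairs of members over 18 lesions, Fas with Casp8 had the lowest r and Tnfrsf10b with Casp8 the highest. Serpinb9 with Mcl1 came next to the highest with 0.73, with 0.72 after centring and with 0.50 without NK1-3. Alveolar markers summed to 3055 CPM in NK1-3 and 664 CPM in KO1-4. KO2-1, with 31.7 CPM of Fas, had 1107 CPM of them. The part of lung cells in these pairs was not tested.

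Bid (chromosome 6, 120891930 to 120916853, minus strand), the substrate at which the receptor and granzyme routes meet, had 9.30, 25.1 and 41.5 CPM in NK lesions, against 11.9, 24.3 and 49.7 CPM in Ctrl lesions. The ranges nearly coincided. The mice had 16.4 CPM (NK1) and 31.4 CPM (NK2), against 23.8 (KO1), 36.7 (KO2) and 41.2 CPM (KO3), a log2 fold change of -0.50 ± 0.46 (95% interval -1.57 to 0.57). It was -0.11 without mouse NK1 and -1.04 without NK2. An exon of Bcl2l13 on the opposite strand overlaps Bid. How strand was handled in counting is not stated, so reads of the overlap cannot be told apart.

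Serpinb9 (chromosome 13, 33003250 to 33017957, plus strand), the granzyme B inhibitor, had the fewest counts of the members, 441 in NK lesions and 355 in Ctrl lesions. It had 0, 5.66 and 9.42 CPM in NK lesions, against 0.457, 2.65 and 6.68 CPM in Ctrl lesions. The 4 lesions of NK2 had 5.66 to 9.42 CPM, while NK1 had 3.62 CPM in NK1-1, 0.811 CPM in NK1-2 and 0 counts in NK1-3, where 3 counts would be 2.16 CPM. The Ctrl lesions KO2-2 and KO2-3 reached 6.68 and 6.64 CPM, inside the range of NK2. The sums per mouse were 2.38 CPM (NK1) and 7.42 CPM (NK2), against 2.81 (KO1), 4.91 (KO2) and 2.61 CPM (KO3). The log2 fold change was 0.51 ± 0.75 (95% interval -1.21 to 2.24), with 1.11 without mouse NK1 and -0.54 without NK2. It was -0.00053 when each lesion had the same weight. NK cells and myeloid cells also make this serpin. In the lesions of NK2, macrophage and monocyte markers summed to 2981 to 4309 CPM and NK cell markers to 13.4 to 40.6 CPM, against 527 CPM and 5.76 CPM in NK1-3. NK1-1, with 3350 CPM of macrophage and monocyte markers and the highest NK cell markers at 83.5 CPM, had less Serpinb9 than every NK2 lesion; the part of these cells in the Serpinb9 counts was not tested. Of the close relatives Serpinb9b to Serpinb9g, only Serpinb9b had counts, 5 in NK lesions and 4 in Ctrl lesions, but reads can be split between such copies.

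Among the survival genes, Mcl1 (chromosome 3, 95658788 to 95663176, plus strand) had 47.5, 171 and 204 CPM in NK lesions, against 101, 165 and 275 CPM in Ctrl lesions. NK1-3 lay below every Ctrl lesion and the other 6 NK lesions lay among them. The mice had 161 CPM (NK1) and 183 CPM (NK2), against 149 (KO1), 222 (KO2) and 203 CPM (KO3). The log2 fold change was -0.15 ± 0.37, the narrowest of the 8, and its 95% interval of 0.50-fold to 1.62-fold holds neither a doubling nor a larger rise. It was -0.40 without NK1-1, -0.04 without NK1-3 and -0.03 without mouse KO2. Neutrophils depend on MCL1, and neutrophil markers summed to 130 to 864 CPM in NK lesions and 214 to 5457 CPM in Ctrl lesions; their part in the Mcl1 counts was not tested.

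Bcl2l1 (chromosome 2, 152780668 to 152831728, minus strand), whose isoforms include the protective BCL-XL and a shorter form with the opposite effect that gene counts do not separate, had 6.08, 23.7 and 29.3 CPM in NK lesions, against 15.6, 20.9 and 40.2 CPM in Ctrl lesions. NK1-2 was the lowest lesion and KO1-5 the highest. By mouse, the values were 14.4 CPM (NK1) and 27.5 CPM (NK2), against 26.2 (KO1), 24.5 (KO2) and 19.0 CPM (KO3). The log2 fold change was -0.15 ± 0.44 (95% interval -1.17 to 0.88), and it was 0.25 without mouse NK1 and -0.70 without NK2.

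The design asks whether lesions of mice given NK cells differ in these genes from lesions of mice given PBS. None of the 8 passed edgeR's quasi-likelihood test on counts summed per mouse (adjusted p = 0.9998 for each), where 0% of all 16917 genes passed. None had an unadjusted p under 0.05, against 2.52% of all genes, and none was called by DESeq2, which called 0.124% of them. For 0 of 8 did both NK mice lie above every Ctrl mouse, against 7.94% of all genes, and for 0 of 8 below, against 6.86%. Casp8 and Serpinb9 had positive values and 6 members negative ones, with a median log2 fold change of -0.15, against -0.03 over all genes tested. The median was 0.06 without mouse NK1 and -0.49 without NK2. The intervals are wide: that of Casp8 runs from 0.456-fold to 4.85-fold and that of Serpinb9 from 0.432-fold to 4.72-fold. The labels do not say whether the mice came from separate experiments, so p-values measure the spread between these 5 mice.

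**Figure D3:**
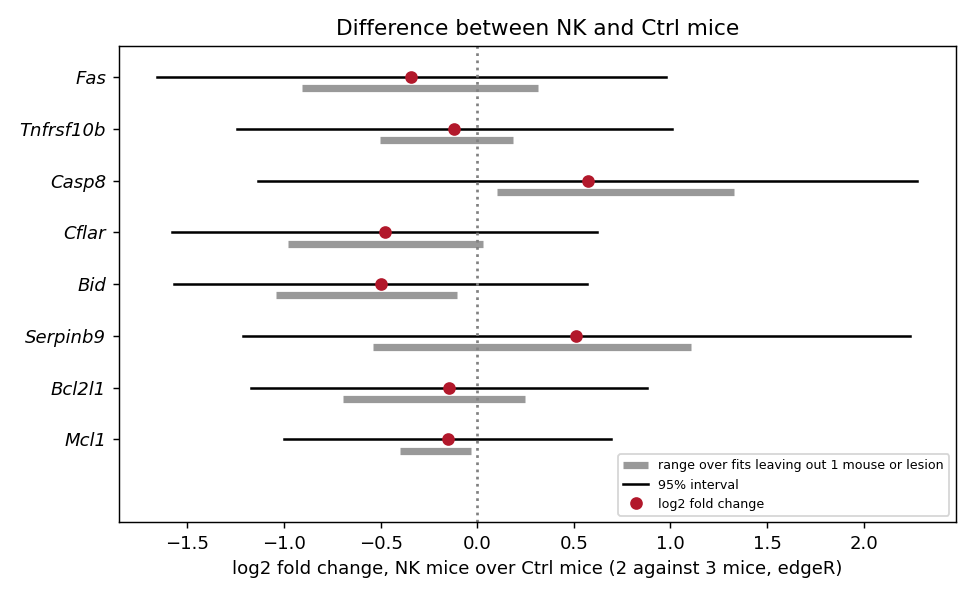
Log2 fold change of each gene, NK over Ctrl mice (horizontal), with its 95% interval in black and, in grey, the range over 23 fits that each left out 1 mouse or 1 lesion. All intervals include 0, and the grey ranges of Fas, Tnfrsf10b, Cflar, Serpinb9 and Bcl2l1 reach both sides of 0, while those of Casp8, Bid and Mcl1 do not.

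Mice of the same treatment were also compared, with lesions as the unit. For Casp8 the log2 difference was -2.83 for KO3 minus KO1 and -2.02 for KO3 minus KO2. For Cflar these differences were 1.17 and 1.52. In all, 2 of 8 members, Casp8 (p = 0.0223) and Cflar (p = 0.00485), had an unadjusted p under 0.05 in edgeR's test of the 3 Ctrl mice, against 21.2% of all genes. Neither passed after adjustment (Casp8 adjusted p = 0.175, Cflar adjusted p = 0.101), where 2.39% of all genes did. DESeq2 called both (Casp8 adjusted p = 0.0171, Cflar adjusted p = 0.0188), but it called 12.9% of all genes. The Cflar difference rested on KO3-2. Its adjusted p in edgeR was 0.703 without that lesion and 0.0149 without KO3-1, which left KO3-2 alone. Casp8 had an adjusted p of 0.0459 without lesion NK1-3 and of 0.380 without KO3-2. Fas had an adjusted p of 0.447, with KO2 above KO1 by 1.01 and KO3 above KO1 by 1.27 on the log2 scale.

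Mice NK1 and NK2 were compared in the same fit. Serpinb9 was 2.03 lower on the log2 scale in NK1 (-2.03 ± 0.93, unadjusted p = 0.0406, adjusted p = 0.234; -3.82 without NK1-1), the 1 member of 8 with an unadjusted p under 0.05, against 19.5% of all genes. Fas gave 1.53 ± 0.75 (adjusted p = 0.270), and -0.59 without NK1-3. None of the 8 was called by edgeR, which called 1.37% of all genes, or by DESeq2, which called 8.54%.

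The biological coefficient of variation between lesions of a mouse was 65.0% for Casp8, against 50.4% for genes of its level. Fas had 67.2%, against 52.6% for its level, and Serpinb9 68.7%, against 84.9%. Tnfrsf10b (47.1%, trend 57.7%), Cflar (37.9%, trend 47.6%), Bid (44.1%, trend 51.3%), Bcl2l1 (41.8%, trend 52.9%) and Mcl1 (37.3%, trend 44.8%) lay below the trend. Differences between the 5 mice made up 29.6% (Fas) to 51.2% (Serpinb9) of the squared deviations of log2 CPM, with a median of 32.4% over all genes tested. Such a share lies well above 0 even where mice do not differ, because 5 means are taken from 18 lesions.

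For each member, the genes with the most similar pattern were named by Pearson's r of log2 CPM over 18 lesions among all tested genes. Casp8 was nearest to Fam171a1 (0.92), to Cdkn1a (0.92), which encodes the cell cycle inhibitor p21, and to the hyaluronidase gene Hyal2 (0.91). Fas was nearest to Cdc42ep3 (0.93), to the calcium pump gene Atp2a3 (0.90) and to Hopx (0.89), which is among the alveolar markers. Tnfrsf10b was nearest to Rbbp5 (0.94) and Serpinb9 to Rac1 (0.95). Mcl1 was nearest to Milr1 (0.94) and to Clec7a (0.93), the gene of the myeloid receptor dectin-1. Cflar was nearest to the kinase gene Gsk3b (0.90), Bid to the kinase gene Stk24 (0.82) and Bcl2l1 to Zhx2 (0.74). After centring on the mice the value for Zhx2 was 0.60. The next genes in the ranking were Chst5 (0.92) and Opa3 (0.92) for Tnfrsf10b, Tor1b (0.89) and Ubp1 (0.88) for Cflar, and Fem1b (0.80) and Lrrc8d (0.80) for Bid. For Serpinb9 they were Cdk17 (0.94) and Clic4 (0.93), for Bcl2l1 Dcun1d4 (0.74) and Phex (0.73), and for Mcl1 Sft2d1 (0.92). Each is the top of a ranking of all tested genes and describes these libraries, which share hosts and differ in depth.

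The other genes of the death pathways were read from a list of 90, of which 85 had counts and 79 were tested. None rose or fell by edgeR's test, and 1 of 79, Bnip3, had an unadjusted p under 0.05, against 2.52% of all genes. Both NK mice lay above every Ctrl mouse for 6 of 79 (7.59%) and below for 4 (5.06%), near the shares over all genes given above. Of the 79, 32 had positive and 47 negative values. Their median log2 fold change was -0.13, against -0.03 over all genes tested. Signs within a role come from the same 5 mice and were not tested as a set.

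Death ligands were sparse. Fasl, the ligand of Fas, had 10 counts in NK lesions and 7 in Ctrl lesions and was not tested, and the TRAIL gene Tnfsf10 had 3.45 ± 1.52 CPM (SD, n = 2) in NK mice and 4.82 ± 3.76 CPM (n = 3) in Ctrl mice. Tnfsf12, the TWEAK gene, gave -0.20 ± 0.86. Tnf gave a log2 fold change of -1.89 ± 1.26 on 22 counts in NK lesions and 67 in Ctrl lesions. All 5 tested death receptors had negative values, none past the test. They include Tnfrsf12a, the TWEAK receptor, at -0.30 ± 0.34 with both NK mice below the Ctrl mice, the TNF receptor Tnfrsf1a at -0.32 ± 0.40 and Ltbr at -0.16 ± 0.40. Of the mouse decoy receptors for TRAIL, Tnfrsf23 gave -1.42 ± 0.91, with both NK mice below the Ctrl mice, and Tnfrsf22 had 4.36 ± 0.517 CPM (n = 2) in NK mice and 4.37 ± 2.57 CPM (n = 3) in Ctrl mice. The second TNF receptor, Tnfrsf1b, gave -0.85 ± 0.62.

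Of 16 adaptors and regulators, 5 had positive and 11 negative values. The necroptosis executor Mlkl gave -0.57 ± 0.42 and Sharpin -0.94 ± 0.57, each with both NK mice below the Ctrl mice, and the kinase Ripk1 gave -0.14 ± 0.37. Of 13 caspases and substrates, 7 had positive values. Parp1 gave -0.28 ± 0.44 and Apaf1 -0.67 ± 0.54. Among caspase inhibitors and their antagonists, Htra2 gave -0.61 ± 0.45, Birc6 -0.24 ± 0.38 and Xiap 0.07 ± 0.49.

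In the BCL2 family beyond the members, Bcl2 gave -0.13 ± 0.39, Bcl2a1b -0.15 ± 0.49 and Bcl2a1d -0.29 ± 0.77. Another copy, Bcl2a1a, gave 0.20 ± 0.57, and reads can be split between these near-identical Bcl2a1 copies. The effectors Bax and Bak1 gave 0.30 ± 0.52 and -0.26 ± 0.58, and the channel gene Vdac2 gave 0.17 ± 0.48. Of 8 tested BH3-only genes, 5 had positive values. Bcl2l11, which encodes BIM, had 17.2 ± 0.318 CPM (n = 2) in NK mice and 12.6 ± 4.46 CPM (n = 3) in Ctrl mice, with both NK mice above the Ctrl mice. Bnip3l, a relative of Bnip3, gave 0.48 ± 0.44. Bnip3, a mitophagy gene induced in hypoxia, gave 2.20 ± 0.86 (adjusted p = 0.9998). Lesion NK1-1 held 506 of its 759 NK counts, at 79.7 CPM, and the other NK lesions had 3.27 to 8.11 CPM, within the 0 to 9.76 CPM of the Ctrl lesions.

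The list of granzyme inhibitors besides Serpinb9 holds serpins, and not each of them is an established inhibitor of a granzyme. All 4 that were tested had negative values. Serpinb6a had 253 ± 50.3 CPM (n = 2) in NK mice and 365 ± 99.0 CPM (n = 3) in Ctrl mice, Serping1 gave -0.31 ± 0.54 and Serpinb6b -0.27 ± 0.52. Of 11 genes for granzyme entry and substrates, 6 had positive values, with the granzyme A target Set at -0.10 ± 0.39, the protease Ctsb at 0.10 ± 0.42 and Nme1 at -0.21 ± 0.37. Between the Ctrl mice 1 of 79 passed edgeR's test, Bcl2a1b (adjusted p = 0.049), against 2.39% of all genes, and between NK1 and NK2 1 of 79, Traf2 (adjusted p = 0.0451), against 1.37%. Both counts are no more than the share over all genes gives.

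**Figure D4:**
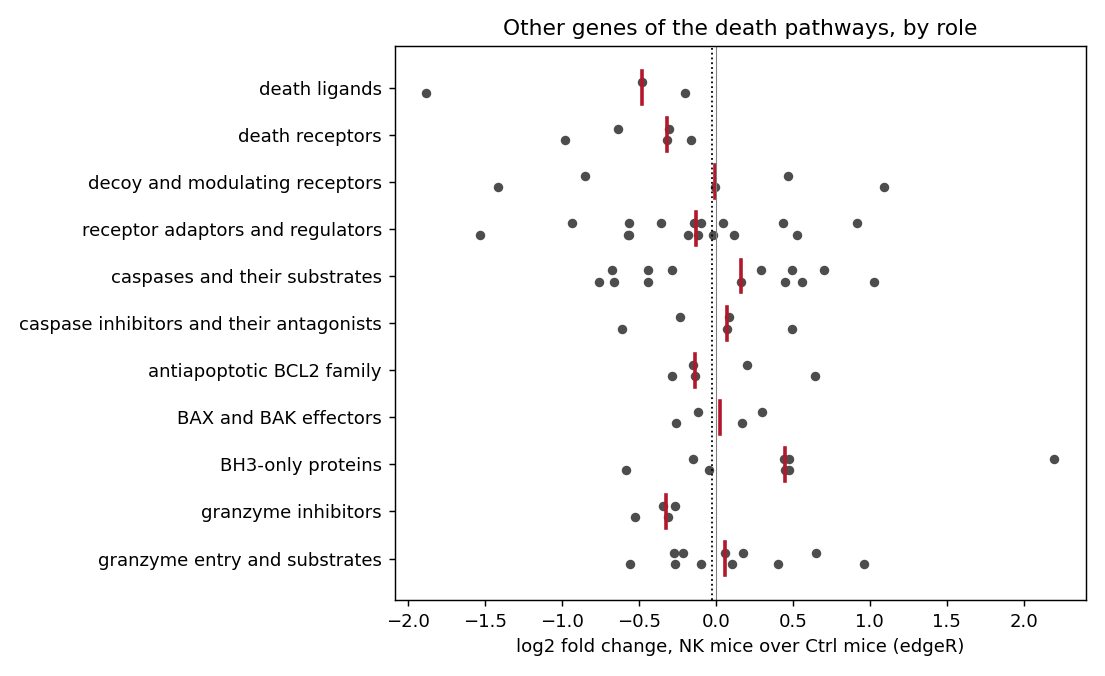
Log2 fold change, NK over Ctrl mice (horizontal), of the 79 tested pathway genes (points) by role, with the median of each role in red and the median of all genes tested (-0.03) as a dotted line. The point at 2.20 is Bnip3 and the lowest, at -1.89, is Tnf.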

How the data were processed

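RNA of laser-captured lesions (2 ng of total RNA per library) was sequenced, and bcl2fastq 2.17, STAR, RSEM 1.2.28 and DESeq2 are named with the mm10 build per the submitters' processing notes. The deposited count table holds expected counts, unscaled to judge by their differing totals, of which 6.90% are not whole; they were rounded before any test. The authors' normalized table appears to be in log2 units, its making is not stated, and it served only as an alternative. There were 0 further columns of sample values. Symbols were matched by gene identifier for 49326 of 49585 identifiers, and GRCm38 positions and merged exons came from GENCODE M21.

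Lesions of a mouse are not independent, so their counts were added up per mouse. NK and Ctrl mice were compared with edgeR 4.0.16 in R 4.3.3 (robust quasi-likelihood F test, TMM scaling, filterByExpr with a minimum count of 10 and a minimum total of 15), with Benjamini-Hochberg adjustment over all genes tested and a threshold of 0.05. Differences between mice of a group were tested on single lesions in 1 fit with a mean per mouse. SE is the log2 fold change divided by the square root of F. CPM uses TMM-scaled library sizes, set separately for lesions and for mice; log2 CPM has a prior count of 2. The ratio of Cflar to Casp8 has 0.5 added to each count. DESeq2 1.42.0 and limma 3.58.1 served as alternatives. The fits were tested on simulated data. For NK against Ctrl they called 11% of 4-fold and 78% of 16-fold changes, with 5 unchanged genes called. Between Ctrl mice they called 10% and 62%, and between NK1 and NK2 18% and 63%. Most changes of 4-fold would thus go uncalled.

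The members, gene lists and tests were chosen with earlier results of these data known. Named genes are the members, the 3 pathway genes of each role with the highest mean CPM, those past a threshold, and the 3 genes most similar to each member. Fasl and Bcl2a1a were added outside that rule, after their values were seen. A pathway gene that the rule names is not reported here. Total counts of 2964242 to 11798897 per lesion limit the precision. Intervals of log2 fold changes cover the spread between mice, and floors (3 counts) cover counting error only.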

Additional observations from a re-analysis of the deposited data

Results flagged for a closer look

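Dixon's criterion for a log2 CPM far from the others was applied to 32 sets of lesions. These were the 7 NK lesions and the lesions of each mouse with 4 or more, for each gene. It was met 5 times. Chance gives about 1 in 20 for independent sets, but these sets share lesions. All 5 were among the 7 NK lesions, which come from 2 mice, and all were low values in mouse NK1. The 11 Ctrl lesions were not tested together as a set, so the place of these 5 does not compare NK with Ctrl lesions. Mice NK1 and KO3, with fewer than 4 lesions each, had no set of their own. Lesion NK1-3, the shallowest library, was low for Casp8 (log2 CPM of -0.097, the next lesion at 4.78), for Tnfrsf10b (1.25, next 3.32) and for Mcl1 (5.58, next 7.08). Lesion NK1-1 was low for Bid (3.25, next 4.50), and NK1-2 for Bcl2l1 (2.66, next 4.04). The cause was not tested.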

How the results depend on the processing

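No paired analysis was possible because the lesion numbers and mouse numbers name samples within a treatment and link none across treatments. Members called for NK against Ctrl stayed at 0 in each alternative run, while the count over all genes was 224 without a filter on low counts, 21 with DESeq2 and 0 to 4 when a mouse or lesion was left out (4 without mouse NK2). Between Ctrl mice it was 404, with 2189 in DESeq2 and 74 (without KO3-2) to 1396 (without KO3-1) when a lesion was left out; between NK1 and NK2 it was 231, with 1445 in DESeq2 and 36 (without NK2-4) to 1005 (without NK1-2). Directions turned for Serpinb9 with equal weight of lesions (-0.00053), and for Tnfrsf10b (0.12) and Bcl2l1 (0.29) without the 6 lesions over 40% mt-Rnr2. That run dropped every lesion of mouse NK1 and left NK2 as the only NK mouse, so it cannot separate the mt-Rnr2 share from the mouse. Without mouse NK1 alone, Tnfrsf10b gave 0.18 and Bcl2l1 0.25. Tnfrsf10b was also positive without NK1-1 and NK1-3 (0.29) and without NK1-3 and KO3-1 (0.13), alternatives chosen after seeing the data. Leaving out a mouse or lesion gave -0.50 to 0.18 for Tnfrsf10b, -0.70 to 0.25 for Bcl2l1, -0.54 to 1.11 for Serpinb9, -0.98 to 0.029 for Cflar and -0.90 to 0.32 for Fas; for NK1 against NK2 it gave -0.78 to 0.069 for Bid and -0.59 to 2.03 for Fas. The cause was not tested. The number of mice, 2 against 3, limits the precision, and for Serpinb9 the counts do as well.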
